A study of Arabidopsis thaliana with 6 samples.

Results

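The genes of sulfate activation and reduction in Arabidopsis thaliana described here are the ATP sulfurylases ATPS1 to ATPS4, the APS kinases APK1 and APK2, the APS reductases APR1, APR2 and APR3, and the sulfite reductase SIR. They were picked by gene identifier, 10 of the 27371 genes in the table, with the values of this comparison already known. Their differences between the groups are therefore a description and support nothing beyond themselves. All 10 passed the filter on low values, as did 16923 genes in all. The libraries come from whole seedlings of ahl13-1 (SALK_014014), 14 days old, raised on sugar-free medium in long days at 23 °C. Both groups carry this mutation in AHL13, which encodes an AT-hook protein of the nucleus. The 3 control libraries are set against 3 from seedlings spray-inoculated with Pst hrcC at an OD600 of 0.002 and sampled after 24 hours; what the controls received is not described. Pst hrcC is a Pseudomonas syringae pv. tomato strain that lacks a working type III secretion system. Wild-type libraries were not analysed here, so no value compares genotypes, and 1 insertion line stands for the mutation.

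Plants make sulfate reactive before they use it. ATP sulfurylase joins sulfate to ATP and forms APS, which then enters either of a pair of branches. APS kinase turns APS into PAPS, from which sulfotransferases place sulfate on glucosinolates, hormones and peptides. APS reductase turns APS into sulfite, and sulfite reductase makes sulfide from it for cysteine, glutathione and methionine. In Arabidopsis APK1 and APK2 supply most of the PAPS for glucosinolates, and APR2 is the main APS reductase. ATPS1, ATPS3 and ATPS4 are known targets of the microRNA miR395, which accumulates in sulfate starvation, and ATPS2 is not.

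Levels are FPKM, fragments per kilobase of transcript scaled to the mapped fragments of the library. Summed FPKM still differed between libraries, from 550765 to 2156590 in the controls and from 838052 to 2000600 in the sprayed libraries. Differences are on the log2(FPKM + 1) scale, which makes the change of low genes look smaller. Relative depth, taken from the spacing of the lowest values, was 4.87 and 2.85 times that of control replicate 1 in the other controls, and between 0.814 (replicate 3) and 4.54 (replicate 1) in the sprayed libraries. AHL13 (AT4G17950) itself measured 2.32, 2.17 and 2.47 FPKM in the controls against 1.98, 2.43 and 2.08 FPKM in the sprayed seedlings, which overlap. Where the insertion lies relative to the counted sequence is not given in the sources used here, so these values do not check the genotype. Leaf and root tissue were both present: all 8 leaf markers and 10 of 12 root markers had a mean of at least 1 FPKM, and none was listed at 0 throughout. Summed leaf markers spanned 28638 to 37145 FPKM in controls and 24095 to 37160 FPKM in sprayed seedlings. Summed root markers spanned 159 to 182 FPKM and 198 to 336 FPKM, without overlap. Most of that sum is the beta-glucosidase PYK10, and without it the ranges were 28.1 to 42.4 FPKM and 41.4 to 54.4 FPKM, which overlap. The part of root tissue in the differences of the 10 genes was not tested. In whole seedlings, fewer cells of a type and less RNA per cell cannot be told apart.

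The miR395 sequences are shown because they divide the ATP sulfurylases by a feature that the choice of genes did not use. The 6 annotated miR395 loci yield 2 mature forms (RefSeq annotation of TAIR10.1), printed 5′ to 3′ with the seed, bases 2 to 8, in capitals. The form of miR395a is shared by miR395d and miR395e, and that of miR395b by miR395c and miR395f.
miR395a (chr1:9363206-9363226, minus strand): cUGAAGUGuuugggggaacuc
miR395b (chr1:9364540-9364560, plus strand): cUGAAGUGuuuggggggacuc
Each spliced transcript was scanned for its best ungapped match to miR395a, scoring a mismatch 1 and a G:U pair 0.5. The matches below lie in coding sequence and are printed 5′ to 3′, with the bases that pair with miR395a by Watson-Crick rules in capitals.
ATPS1 (chr3:8113164-8113184, plus strand): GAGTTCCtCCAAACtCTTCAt
ATPS3 (chr4:8414958-8414978, minus strand): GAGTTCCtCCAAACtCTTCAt
ATPS4 (chr5:17591121-17591141, minus strand): GAGTTCCtCCAAACACTTCAt
SULTR2;1 (chr5:3193268-3193288, plus strand): aAGTTCtCCCAAACACTTCAa
ATPS2 (chr1:6915836-6915856, minus strand): GctcTCtCCtAAACAgcTtAG
ATPS4 scored 1.5, while ATPS1, ATPS3 and the sulfate transporter SULTR2;1 scored 2.5 each. Of 26694 genes scanned with both forms, the lower score being kept, 9 scored 2.5 or less. The best match to miR395a in ATPS2 scored 6.5, and those in the kinases, the reductases and SIR scored 6.5 to 8.5. Against the miR395b form SIR scored 5.5. A match is a run of letters and not a measured cleavage site, and miR395 itself was not analysed here.

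In the sprayed seedlings the kinase APK2 stood furthest above its controls. Next came APR1 (1.63 on the log2 scale), ATPS1 (1.31), APK1 (1.29), ATPS3 (1.101) and SIR (0.67), while ATPS2 and APR2 had the smallest differences. In 6 of the 10 genes (APK1, APK2, ATPS1, ATPS3, APR1 and SIR) all 3 sprayed values lay above all 3 control values, as in 7.66% of tested genes. In 0 of the 10 did all lie below, as in 3.61% of tested genes. The limma test over all tested genes called 1 of the 10, APK2, higher at an adjusted p under 0.05 and none lower, where 0.284% of tested genes were called higher and 0.29% in either direction. At an unadjusted p under 0.05 limma put 6 of the 10 higher, with 5.18% of tested genes. These genes were chosen on this contrast, so nothing is read from the counts. The median log2 difference was 0.89 over the 10 genes and 0.04 over all tested genes.

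**Figure D1:**
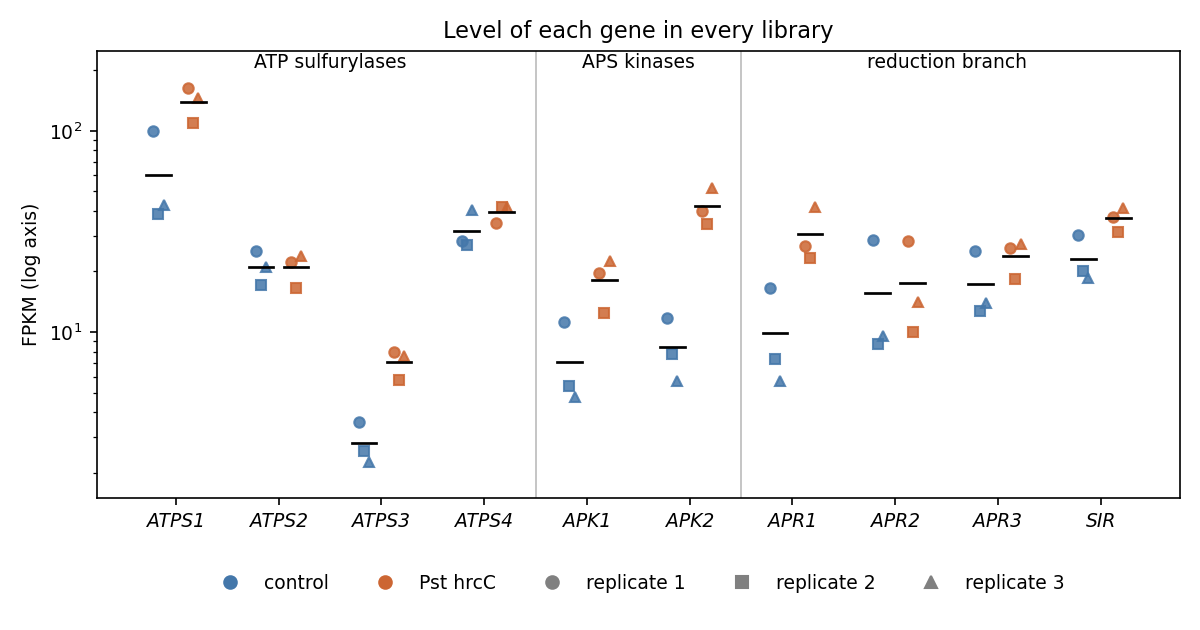
Level of each of the 10 genes in every library (FPKM, log axis), with blue symbols for the 3 controls, orange symbols for the 3 Pst hrcC libraries, symbol shape for the replicate number and a black line for the group mean. ATPS1 is the most abundant gene in both groups, APK2 has group means of 8.41 and 42.2 FPKM, and APR2 is high in replicate 1 of both groups.

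ATP sulfurylases make the APS that both branches use. ATPS1 (AT3G22890), the most abundant of the 10 genes, measured 99.7, 38.4 and 42.7 FPKM across controls and 163, 110 and 145 FPKM across sprayed libraries. The groups did not overlap, although control replicate 1 came close to sprayed replicate 2. The log2 difference was 1.31 ± 0.38 (SE, 3 libraries a side; limma adjusted p 0.455). ATPS3 (AT4G14680), the least abundant, measured 3.58, 2.56 and 2.25 FPKM across controls and 7.94, 5.80 and 7.63 FPKM across sprayed libraries. Each sprayed library was above every control, and the difference of group means was 1.101 ± 0.18 in log2 units (SE; limma adjusted p 0.109). ATPS4 (AT5G43780) measured 28.3, 26.9 and 40.4 FPKM and 34.7, 41.8 and 41.6 FPKM, which overlap, with control replicate 3 the highest control. Its log2 difference was 0.31 ± 0.20 (SE; limma adjusted p 0.989).

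ATPS2 (AT1G19920) measured 25.2, 17.2 and 20.9 FPKM across controls and 22.4, 16.6 and 24.0 FPKM across sprayed libraries. The ranges nearly coincide, with replicate 2 lowest in both groups. The log2 difference was -0.01 ± 0.21 (SE; limma adjusted p 1.000), and it was higher in 1 of 3 same-numbered pairs. As a share of summed ATP sulfurylase FPKM, ATPS2 made up 16.1, 20.2 and 19.7% in controls and 9.81, 9.56 and 11.0% in sprayed libraries, without overlap. ATPS1 made up 63.6, 45.1 and 40.2% and 71.5, 63.1 and 66.5%, where control replicate 1 slightly exceeded sprayed replicate 2. The summed level was 116 ± 36.8 FPKM in controls and 207 ± 29.1 FPKM in sprayed libraries (SD over 3). Among the ATP sulfurylases with a close miR395 match the log2 differences ran from 0.31 (ATPS4) to 1.31 (ATPS1). SULTR2;1, which has such a match too, measured 8.92, 9.94 and 8.30 FPKM in controls and 8.65, 12.3 and 18.5 FPKM in sprayed seedlings, which overlap. Its log2 difference was 0.44. The part of miR395 in these differences was not tested.

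The PAPS branch held the largest difference of the 10 genes. APK2 (AT4G39940) measured 11.7, 7.81 and 5.70 FPKM across controls and 39.8, 34.5 and 52.2 FPKM across sprayed libraries. The lowest sprayed value was well above the highest control. APK2 rose from 8.41 ± 3.05 to 42.2 ± 9.07 FPKM (SD over 3), by 2.23 ± 0.27 in log2 units (SE; limma adjusted p 0.0461), and was higher in 3 of 3 pairs. Of all tested genes, 0.603% had a larger log2 change. With the replicate number as a block the call was lost (limma adjusted p 0.0649), so 0 of the 10 passed, where 0.266% of tested genes were called higher and 7 of the 10 were higher at an unadjusted p under 0.05, as were 8.18% of tested genes. The call was also lost without control replicate 2 or 3 (limma adjusted p 0.251 and 0.194) and without sprayed replicate 2 or 3 (limma adjusted p 0.189 and 0.175). Over 17 alternative settings 7 kept it, with limma adjusted p from 0.00374 to 0.380.

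APK1 (AT2G14750) measured 11.2, 5.36 and 4.73 FPKM across controls and 19.7, 12.5 and 22.5 FPKM across sprayed libraries. The groups did not overlap, though control replicate 1 was close to sprayed replicate 2. Its log2 difference was 1.29 ± 0.34 (SE; limma adjusted p 0.380). APK2 stood at 1.05, 1.46 and 1.21 times APK1 in controls and 2.02, 2.77 and 2.32 times in sprayed libraries, so every sprayed ratio lay above every control ratio. The coding sequences of the pair were 64.5% identical over aligned bases, with no shared run longer than 14 bases. The other APS kinases of the genome, APK3 and APK4, had means under 1 FPKM and were not tested. APK3 (AT3G03900) measured 0.476, 0.146 and 0.334 FPKM and 0.362, 0.375 and 0.147 FPKM, and APK4 (AT5G67520) 0.390, 0.288 and 1.097 FPKM and 1.01, 0.637 and 1.25 FPKM. Both overlap between the groups.

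Promoters of APK1 and APK2 are shown because both kinases stood above their controls in every pair, and because AT-hook proteins bind AT-rich DNA. ATPS1, ATPS3, ATPS4, APR1, APR3 and SIR stood above their controls in every pair too. Each is the 300 bases before the annotated start in the RefSeq annotation of TAIR10.1, printed 5′ to 3′ on the gene's strand, with any searched motif in capitals.
APK1 (chr2:6313583-6313882, plus strand): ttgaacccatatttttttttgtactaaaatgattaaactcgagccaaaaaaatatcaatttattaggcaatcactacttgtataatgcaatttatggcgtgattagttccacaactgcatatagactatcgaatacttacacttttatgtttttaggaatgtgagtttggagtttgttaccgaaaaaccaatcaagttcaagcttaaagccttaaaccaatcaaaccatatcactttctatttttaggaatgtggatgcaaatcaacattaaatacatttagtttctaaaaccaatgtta
APK2 (chr4:18519299-18519598, plus strand): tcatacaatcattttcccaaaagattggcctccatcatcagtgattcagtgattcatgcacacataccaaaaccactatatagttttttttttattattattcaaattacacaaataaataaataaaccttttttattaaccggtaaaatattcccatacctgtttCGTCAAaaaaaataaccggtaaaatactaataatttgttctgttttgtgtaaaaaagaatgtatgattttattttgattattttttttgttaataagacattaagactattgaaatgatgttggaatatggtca
Both strands were searched for the G-box CACGTG, the sulfur-responsive core GAGAC, the W-box core TTGAC, the TGA-factor core TGACG and the MYB-type elements ACCTACC and ACCAACC. The APK1 window held none. In APK2 the capitals are 1 TGA core and 1 W-box core, both on the reverse strand and overlapping each other. Of 26692 windows 50.4% held the W-box core and 21.3% the TGA core, against 4 and 3 of the 10. The G-box was in 7.19% of all windows and 0 of the 10, and the sulfur-responsive core in 29.9% and 1 of the 10 (ATPS2). The ATPS2 window overlaps the neighbouring gene AT1G19930, and the ATPS4 window overlaps AT5G43790. The MYB-type elements were in 1.33% and 3.20% of all windows and in 0 of the 10. Median AT content was 74.5% over the 10 windows (60.7% to 79.7%) and 69.0% over all windows, with APK1 at 70.7% and APK2 at 74.7%. A motif is a run of letters, and neither it nor AT content is measured binding. Both groups carry the ahl13-1 mutation, and binding by AHL13 was not tested.

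The reduction branch was mixed. APR1 (AT4G04610), an APS reductase, measured 16.6, 7.37 and 5.69 FPKM across controls and 26.7, 23.3 and 41.99 FPKM across sprayed libraries. Each sprayed library was above every control, and control replicate 1 was the highest of its group. The log2 difference was 1.63 ± 0.40 (SE; limma adjusted p 0.308). APR2 (AT1G62180) measured 28.6, 8.74 and 9.53 FPKM across controls and 28.3, 9.98 and 14.1 FPKM across sprayed libraries. Replicate 1 was about the same in both groups and far above the others, and the log2 difference was 0.23 ± 0.53 (SE; limma adjusted p 1.000). APR3 (AT4G21990) measured 25.2, 12.8 and 14.0 FPKM and 26.1, 18.3 and 27.5 FPKM, which overlap through control replicate 1. Its log2 difference was 0.49 ± 0.29 (SE; limma adjusted p 0.967).

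SIR (AT5G04590), the sulfite reductase, measured 30.4, 20.1 and 18.6 FPKM across controls and 37.1, 31.5 and 41.4 FPKM across sprayed libraries. The groups were narrowly separated. The log2 difference was 0.67 ± 0.22 (SE; limma adjusted p 0.550). Within the APS reductases, APR1 made up 23.5, 25.5 and 19.5% of summed FPKM in controls and 32.9, 45.2 and 50.2% in sprayed libraries, without overlap. APR2 made up 40.6, 30.3 and 32.6% and 34.9, 19.3 and 16.8%, which overlap. Coding sequences of APR1 and APR3 were 81.8% identical with a longest shared run of 41 bases. Those of ATPS1 and ATPS3 were 81.7% identical with a run of 50 bases. How reads were divided within those pairs was not tested.

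**Figure D2:**
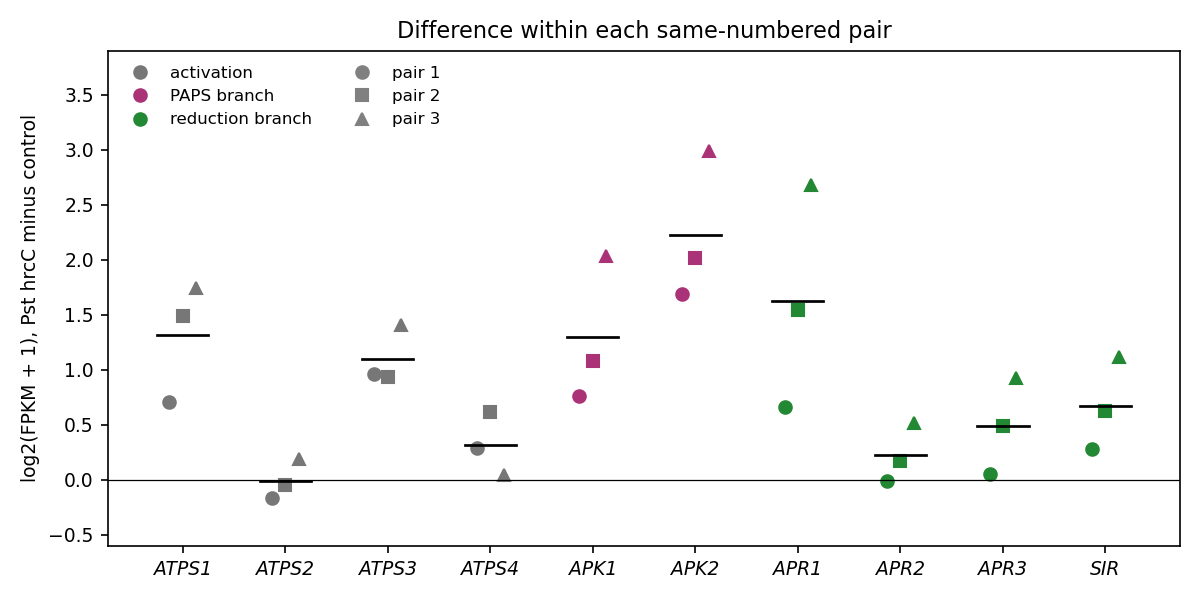
Difference in log2(FPKM + 1) between Pst hrcC and control within each same-numbered pair, with symbol shape for the pair, colour for the step of the pathway and a black line for the mean of the 3 pairs. APK2 differs by 1.68 to 2.99, while ATPS2 lies between -0.16 and 0.19.

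Set against each other, the PAPS branch stood further above its controls than the reduction branch in each of the 3 pairs. The mean log2 difference of APK1 and APK2 was 1.22, 1.55 and 2.51 in pairs 1, 2 and 3. That of APR1, APR2, APR3 and SIR was 0.24, 0.71 and 1.31, and that of the ATP sulfurylases 0.45, 0.75 and 0.85. The PAPS branch exceeded the reduction branch by 0.98, 0.84 and 1.202, a mean of 1.01 ± 0.18 (SD over 3 pairs). This contrast was set when the genes were chosen, so it has no test. APR1 was the highest of its branch in every pair, at 0.66, 1.54 and 2.68 in the 3 pairs, where APK1 was at 0.76, 1.08 and 2.03.

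Within libraries, summed APK1 and APK2 were 0.325, 0.456 and 0.357 times the summed APS reductases in controls and 0.734, 0.910 and 0.893 times in sprayed libraries. The lowest sprayed ratio was above the highest control ratio. A ratio within a library does not depend on how that library was scaled. With SIR added to the reductases the ratio was 0.238 ± 0.0272 in controls and 0.555 ± 0.0478 in sprayed libraries (SD over 3). The summed kinases were at 15.5 ± 6.55 and 60.4 ± 13.9 FPKM, and the summed reductases at 42.8 ± 23.9 and 72.1 ± 17.8 FPKM.

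**Figure D3:**
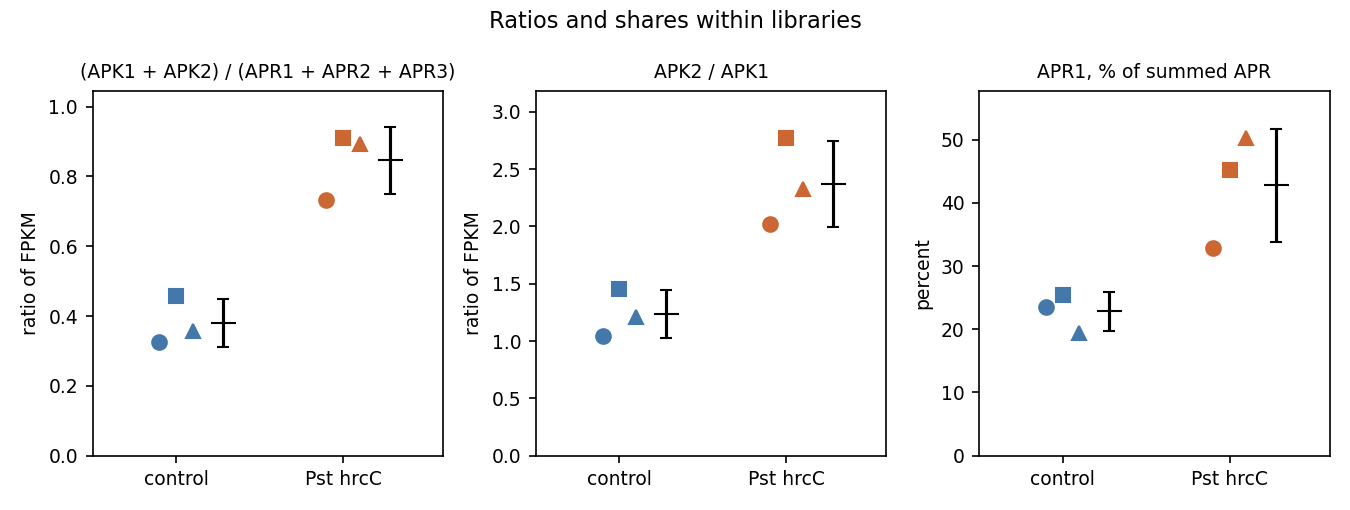
Ratio of summed APS kinase to summed APS reductase FPKM, ratio of APK2 to APK1, and APR1 as a percent of summed APS reductase FPKM, with coloured symbols for libraries and black marks for the mean with SD (n = 3). In all 3 panels the sprayed libraries lie above the controls, at 0.734 to 0.910 against 0.325 to 0.456 in the first.

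The order of levels differed between the groups mainly in the place of APK2. FPKM is per length, so levels of different genes can be set side by side. In controls ATPS1 led at 60.3 ± 34.2 FPKM, followed by ATPS4, SIR, ATPS2, APR3, APR2, APR1, APK2 and APK1, with ATPS3 last at 2.80 ± 0.693 FPKM (SD over 3). Neighbours from ATPS4 to APR2 did not differ beyond their spread, each above the next in 2 of 3 libraries, and APR1 was above APK2 in 1 of 3. In sprayed libraries ATPS1 led at 139 ± 27.4 FPKM and APK2 came next at 42.2 ± 9.07 FPKM, ahead of ATPS4 at 39.4 ± 4.04 FPKM and SIR at 36.7 ± 4.96 FPKM. APK2, ATPS4, SIR and APR1 did not differ beyond their spread there, each above the next in 2 of 3 libraries. APR1, APR3, ATPS2, APK1 and APR2 followed, and ATPS3 was last again at 7.12 ± 1.16 FPKM.

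Replicate number took a larger share of the variation than treatment in 4 of the 10 genes (ATPS2, ATPS4, APR2 and APR3). Replicate number has 3 levels and treatment 2, so these raw shares lean towards replicate number, and nothing is read from the count. On log2(FPKM + 1) it took 94.5% of the sum of squares of APR2 and 88.7% of that of ATPS2, with treatment at 2.80% and 0.0311%. For APK2 replicate number took 1.78% and treatment 92.5%, and for ATPS3 7.45% and 89.1%. The medians over all tested genes were 56.7% for replicate number and 11.0% for treatment. APR2 in replicate 1 stood above the mean of replicates 2 and 3 by 1.55 in controls and 1.19 in sprayed libraries (log2 scale). In APR1 the same gap was 1.23 and -0.22, and in ATPS1 1.28 and 0.37. Pair 1 gave the smallest of the 3 pair differences in 8 of the 10 genes, all but ATPS3 and ATPS4, and pair 3 the largest in 9, all but ATPS4. The part of replicate 1 in these differences was not tested.

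**Figure D4:**
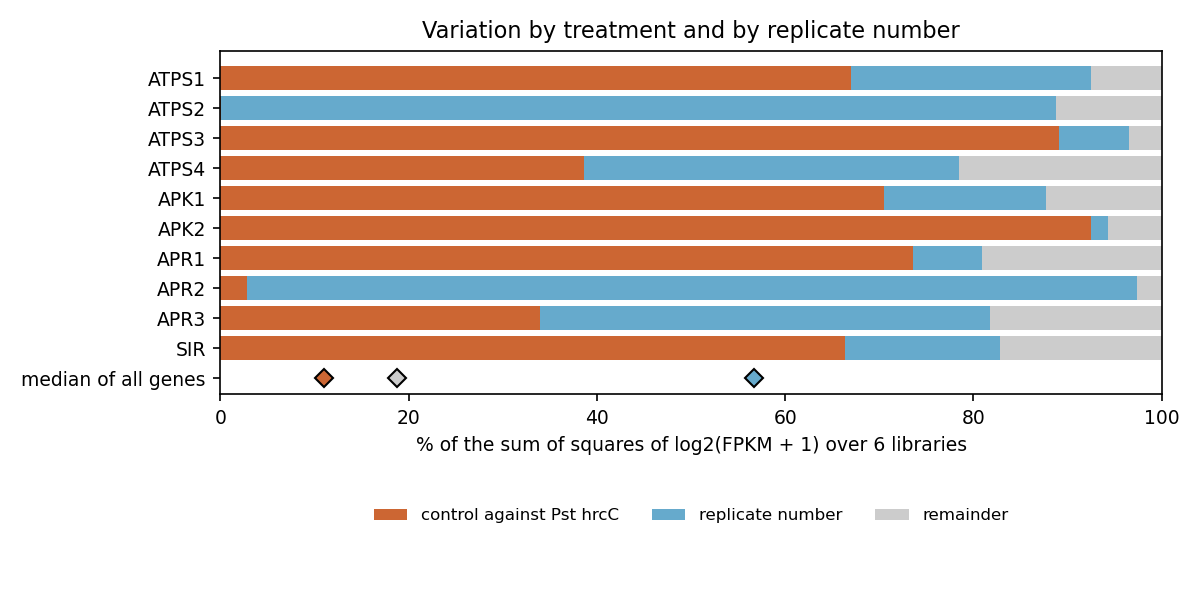
Share of the sum of squares of log2(FPKM + 1) over 6 libraries that goes with treatment, replicate number and neither for each of the 10 genes, with diamonds for the medians over all tested genes. Treatment takes 92.5% for APK2, and replicate number takes 94.5% for APR2.

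Genes that use PAPS gave 1 further call. Of 7 sulfotransferases 1 rose, none fell and 6 did not pass, where 0.284% of tested genes were called higher. The median log2 difference was 0.76. This list and those below were chosen with earlier results of these data known, so nothing is read from their counts. ST2A (AT5G07010), which sulfates hydroxyjasmonate, measured 6.67, 6.19 and 3.86 FPKM across controls and 21.1, 31.2 and 40.6 FPKM across sprayed libraries. It rose without overlap, by 2.26 ± 0.28 in log2 units (SE; limma adjusted p 0.0490). The call was lost with the replicate block (limma adjusted p 0.0799), without control replicate 1, 2 or 3 (limma adjusted p 0.0903, 0.238 and 0.230) and without sprayed replicate 2 or 3 (limma adjusted p 0.224 and 0.159). Over 17 alternative settings 5 kept the call, with limma adjusted p from 0.00374 to 0.295. SOT18 and SOT17, sulfotransferases of glucosinolate synthesis, differed by 1.46 ± 0.21 and 1.503 ± 0.44 (SE; limma adjusted p 0.0695 and 0.455).

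Of 3 genes of PAPS transport and turnover none passed in limma, and the median was 0.75. At an unadjusted p under 0.05 limma put 2 higher, with 5.18% of tested genes. SAL1 (AT5G63980), the phosphatase that clears the PAP left by sulfotransferases, measured 4.81, 5.89 and 6.34 FPKM across controls and 10.9, 12.1 and 14.9 FPKM across sprayed libraries, without overlap. Its log2 difference was 1.02 ± 0.17 (SE; limma adjusted p 0.1004). The PAPS carriers PAPST1 and PAPST2 differed by 0.75 ± 0.25 and 0.09 ± 0.14 (SE; limma adjusted p 0.568 and 1.000).

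Among the genes of cysteine, glutathione and methionine, and among the APR-like proteins, none passed in limma. Of 3 tested serine acetyltransferases, which supply the carbon skeleton of cysteine, limma put 2 higher at an unadjusted p under 0.05. That held for 5.18% of all tested genes, and the median of the 3 was 0.43. SERAT2;2, SERAT1;1 and SERAT2;1 differed by 0.59, 0.43 and -0.28 in log2 units (limma adjusted p 0.525, 0.734 and 1.000). Of 7 tested O-acetylserine(thiol)lyases and relatives, which join sulfide to that skeleton, 1 was higher at an unadjusted p under 0.05 and the median was 0.15. OASC, OASA1 and CYSC1 differed by 0.62, 0.32 and 0.46 (limma adjusted p 0.300, 0.994 and 1.000). Of 9 tested glutathione genes 2 were higher at that level and the median was 0.14. GSH2 and GSH1, which make glutathione, and GGT1, which breaks it down, differed by 0.81, 0.51 and 0.16 (limma adjusted p 0.431, 0.679 and 1.000). Of 9 methionine synthesis genes none had an unadjusted p under 0.05 and the median was 0.28, with CBL, SAM2 and CGS1 at 0.54, 0.30 and 0.29. Of 4 APR-like proteins none did either, with APRL5, APRL7 and APRL4 at 0.31, 0.14 and -0.13 and a median of 0.10.

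Uptake genes and markers of sulfur deficiency showed no call in limma. Of 12 sulfate transporters 6 were tested, with a median of 0.19. Among them 1 was higher at an unadjusted p under 0.05 in limma, as were 5.18% of tested genes. SULTR4;1, a vacuolar exporter, SULTR2;1 and SULTR3;3 differed by 0.98, 0.44 and 0.17 (limma adjusted p 0.244, 0.966 and 1.000). The root uptake transporter SULTR1;2, named here with its values in view, measured 9.04, 4.84 and 6.07 FPKM in controls and 8.56, 4.60 and 6.27 FPKM in sprayed seedlings, which nearly coincide. Of 5 tested sulfur deficiency markers none had an unadjusted p under 0.05, and the median was 0.41 with a range of -0.35 to 0.92. SHM7, SDI2 and LSU3 differed by 0.46 ± 0.23, 0.41 ± 0.23 and 0.92 ± 0.60 (SE), and each overlapped between the groups. LSU3 ran from -0.76 in pair 1 to 2.38 in pair 3. Of 7 genes of sulfite oxidation, sulfolipid synthesis and electron supply 1 was lower at an unadjusted p under 0.05. So were 276 of 16923 tested genes. The median of the 7 was -0.17. UGP3 and SQD1, of sulfolipid synthesis, and the sulfite oxidase SOX differed by -0.30, -0.17 and 0.33 (limma adjusted p 0.710, 1.000 and 0.892).

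Of 7 tested regulators of sulfate assimilation and glucosinolate synthesis none passed in limma, and the median was 0.37. At an unadjusted p under 0.05 limma put 3 higher, 1 of them MYB76, with 5.18% of tested genes. MYB76 (AT5G07700), a regulator of aliphatic glucosinolates, measured 0.124, 0.0253 and 0.174 FPKM across controls and 2.40, 3.19 and 7.05 FPKM across sprayed libraries, without overlap. It passed the filter on low values only through the sprayed libraries, so it had to differ, and its test is not read. Its relative MYB29 differed by 1.43 ± 0.29 and MYB34, of indole glucosinolates, by 0.73 ± 0.24 (SE; limma adjusted p 0.196 and 0.561). Over the 12 lists of other sulfur genes 67 of 83 were tested, 1 rose, none fell and the median log2 difference was 0.16.

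**Figure D5:**
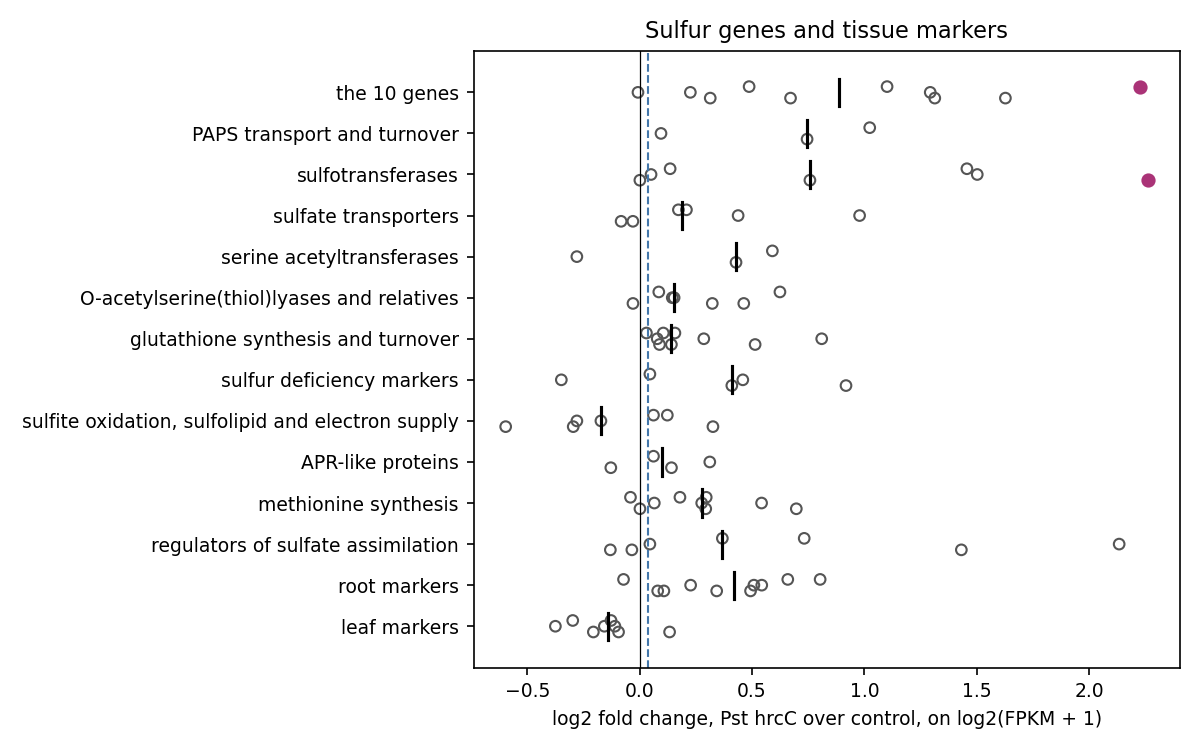
Log2 difference on log2(FPKM + 1) of the 10 genes, the other sulfur genes by list and the leaf and root markers, with a circle for each tested gene, filled where the limma adjusted p is under 0.05, black bars for list medians and a dashed line for the median of all tested genes (0.04). APK2 and ST2A are the filled points.

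The genes most like each branch over the 6 libraries were found by the root-mean-square difference between log2(FPKM + 1) values centred on each gene's mean, with a branch taken as the mean of its genes. The closest to APK1 and APK2 were DJ1F, FMO GS-OX3, FMO GS-OX1, GGP1 and UF3GT, at 0.09, 0.13, 0.15, 0.18 and 0.18. FMO GS-OX1 measured 1.13, 0.339 and 0.219 FPKM across controls and 3.11, 2.82 and 5.42 FPKM across sprayed libraries. UF3GT measured 1.71, 0.185 and 0 FPKM and 5.09, 2.615 and 5.45 FPKM. FMO GS-OX1 and UF3GT passed the filter on low values only through the sprayed libraries, so they had to differ and their likeness is not read. DJ1F (AT3G54600) measured 9.08, 5.52 and 4.42 FPKM across controls and 21.1, 16.5 and 24.8 FPKM across sprayed libraries, with control replicate 1 the highest control. The closest to the reduction branch were PAL1, MES9, RD28, AT1G03940 and TBL27, at 0.12, 0.12, 0.12, 0.12 and 0.14. PAL1 (AT2G37040), the entry enzyme of phenylpropanoid synthesis, measured 57.7, 28.4 and 25.2 FPKM and 57.4, 45.2 and 57.0 FPKM, again with control replicate 1 high. Among the 10 genes the closest were APR3 and SIR at 0.16 and APK1 and ATPS1 at 0.18, and the furthest apart were APK2 and ATPS2 at 1.14.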

How the data were processed

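Sample titles gave the groups and replicate numbers. The labels do not state that replicates were grown separately, so a p-value here reflects the spread among these libraries, which may be technical. The authors deposited FPKM values, used as they stand. FastQC, TopHat2 2.1.1 and Cufflinks 2.2.1 with build TAIR10 are listed in the submitters' processing notes; annotation, strandedness and settings are not given in the sources used. FPKM holds no counts, so no count model was run.

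The 16923 genes averaging 1 FPKM or more were tested on log2(FPKM + 1) with limma 3.58.1 (R 4.3.3; prior variance following mean level, treatment the sole term, two-sided), with Benjamini-Hochberg adjustment over all of them and a threshold of 0.05. The 10 genes and all lists were chosen with earlier results of these data known. Named besides are every called gene and the 3 smallest p in each list of sulfur genes, and the 5 most alike per branch. Same-numbered libraries deviated together (r = 0.43, 0.17 and 0.13 across genes), each over 0.1, so numbers were taken as pairs; this comes from the data, and control replicate 3 correlated more with sprayed replicate 2 (0.21).

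Sequences come from RefSeq TAIR10.1 with its own annotation, matched by gene identifier (10 of 10 genes). The deposited table holds no coordinates, so none were converted between builds.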

Additional observations from a re-analysis of the deposited data

How the results depend on the processing

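Over 17 alternatives APK1, APK2, ATPS1, ATPS4, APR1, APR3, SIR and ST2A kept a positive log2 difference, as did ATPS3 in the 16 that tested it, and the excess of the PAPS branch over the reduction branch stayed positive. That excess was 0.77 with a pseudocount of 5 and 0.93 to 1.097 with 1 library left out. ATPS2 turned positive with array weights (0.0859) and without the replicate 1 pair (0.0697), and spanned -0.14 to 0.14 with 1 library left out. APR2 spanned -0.17 to 0.74 then, ATPS4 0.21 to 0.49 and APR3 0.31 to 0.78. Numbers of calls moved more. Against 49 genes called (48 higher, 1 lower), 116 were called after rescaling over nuclear genes (91 higher, 25 lower), 17 with a pseudocount of 5, 407 under array weights, 182 after dropping the replicate 1 pair, and 2 to 180 with 1 library left out. With no filter on low values limma called 0 (1602 at an unadjusted p under 0.05). The replicate block called 47, of which 26 were among the 49. Against 1 of the 10 genes, 4 passed with array weights (APK2, ATPS1, ATPS3 and APR1), where 370 of 16923 tested genes were called higher. Without the replicate 1 pair 2 passed (APK2 and ATPS1), with 173 of 16923 called higher. With 1 library left out 0 or 1 passed, with 2 to 169 of 16923 called higher. In limma 0 passed with median-of-ratios scaling, quantile normalization, a pseudocount of 5 or no filter, where 6 each were higher at an unadjusted p under 0.05 with 4.59%, 4.1%, 5.12% and 4.03% of tested genes. Likewise 0 passed after rescaling over nuclear genes (2 higher, with 1.64% of tested genes) or with the replicate block (7, with 8.18%). Of the other sulfur genes, against 1, 2 passed with a pseudocount of 0.1, 8 with array weights and 0 to 3 with 1 library left out. MYB76, whose test is not read, is among the 2, the 8 and the 3. In limma 0 of them passed with median-of-ratios scaling or with quantiles equalized (14 each at an unadjusted p under 0.05), a pseudocount of 5 or no variance trend (15 each), no filter (18) or the replicate block (25). The cause was not tested. With 3 libraries a group, a difference that missed the threshold is not shown to be absent.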
